A study of Mus musculus with 8 samples.

Results

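The mRNAs of 8 core pluripotency factors, Sox2, Pou5f1, Nanog, Sall4, Lin28, Utf1, Dppa2 and Dppa4, were followed through an RNA immunoprecipitation (IP) experiment in mouse embryonic stem (ES) cells. The genes were taken by the gene name printed for each array probe, which gave 8 of the 27677 genes or unnamed sequences on the array and 9 of its 41174 probes, 2 of them for Sall4 and 1 for each other gene. Lin28 is the array's name for the gene now called Lin28a. The 3 groups were 3 GFP IPs, 2 PABP1 IPs and 3 inputs, and all were of the cell line Dazl-GFP, a transgenic ES line that had been derived again. Every culture sat on γ-irradiated feeder fibroblasts (MEFs) in DMEM with 15% FBS, LIF and the inhibitor pair called 2i, 1 µM PD0325901 against MEK and 3 µM CHIR99021 against GSK3β. The IPs were native, with anti-GFP or anti-PABP1 antibody, and the input was total RNA with no antibody. The design text says that the aim was to find the RNA bound to DAZL. The sources used here leave it unstated if the GFP is a tag on DAZL or a reporter of its promoter, and an IP with an unrelated antibody is not among the arrays analysed here.

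ES cells keep themselves undifferentiated through a small network of transcription factors. OCT4 (the product of Pou5f1) and SOX2 bind DNA side by side at shared enhancers, NANOG and SALL4 join them at many of the same sites, and LIN28 is an RNA-binding protein that blocks maturation of the let-7 microRNAs. UTF1, DPPA2 and DPPA4 are chromatin proteins that mark undifferentiated cells. DAZL is an RNA-binding protein of germ cells that attaches to the 3′ untranslated regions of its targets and is known to bind poly(A)-binding proteins, and in developing germ cells it has been described to hold back the mRNAs of pluripotency factors. PABP1 binds the poly(A) tail that most mRNAs carry.

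Each value is a log2 signal: the log2 of the probe's intensity minus that of the 75th percentile of its array. A difference of 1 unit is thus a doubling of the probe's signal relative to that percentile. Differences between groups are differences of mean log2 signal with the standard error (SE) of limma's fit and a p adjusted by Benjamini-Hochberg over all 20608 tested probes. A probe was called at an adjusted p under 0.05. Separate cultures for the arrays of a group are not stated in the labels, so these p-values measure the spread between the samples, which may be technical. All 9 probes were well above background on all 8 arrays, none had a saturated spot, and all were tested. The share of spots well above background was 41.5% to 52.6% per array. The correlation of log2 signal across probes, which are not independent replicates, was 0.973 to 0.992 within groups and 0.843 to 0.921 between groups. Each slide held 4 arrays and at least 1 of every group, and arrays of 1 slide deviated together, so each member's differences are also given with the slide as a block and within each slide, where the groups had 1 or 2 arrays and 1 residual degree of freedom.

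The specificity of the anti-GFP IP was not tested. Dazl mRNA had a log2 signal of 3.41 ± 0.38 in GFP IPs, −2.10 ± 0.02 in PABP1 IPs and −0.40 ± 0.19 in inputs (SD, n = 3, 2 and 3). Its difference was 3.81 ± 0.21 for GFP IP over input (adjusted p = 2.06e-05). A second Dazl probe, which cleared background on only 3 arrays, was also called higher in the GFP IP (adjusted p = 0.000121) and was not called in the PABP1 IP over input (0.104).

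**Figure D1:**
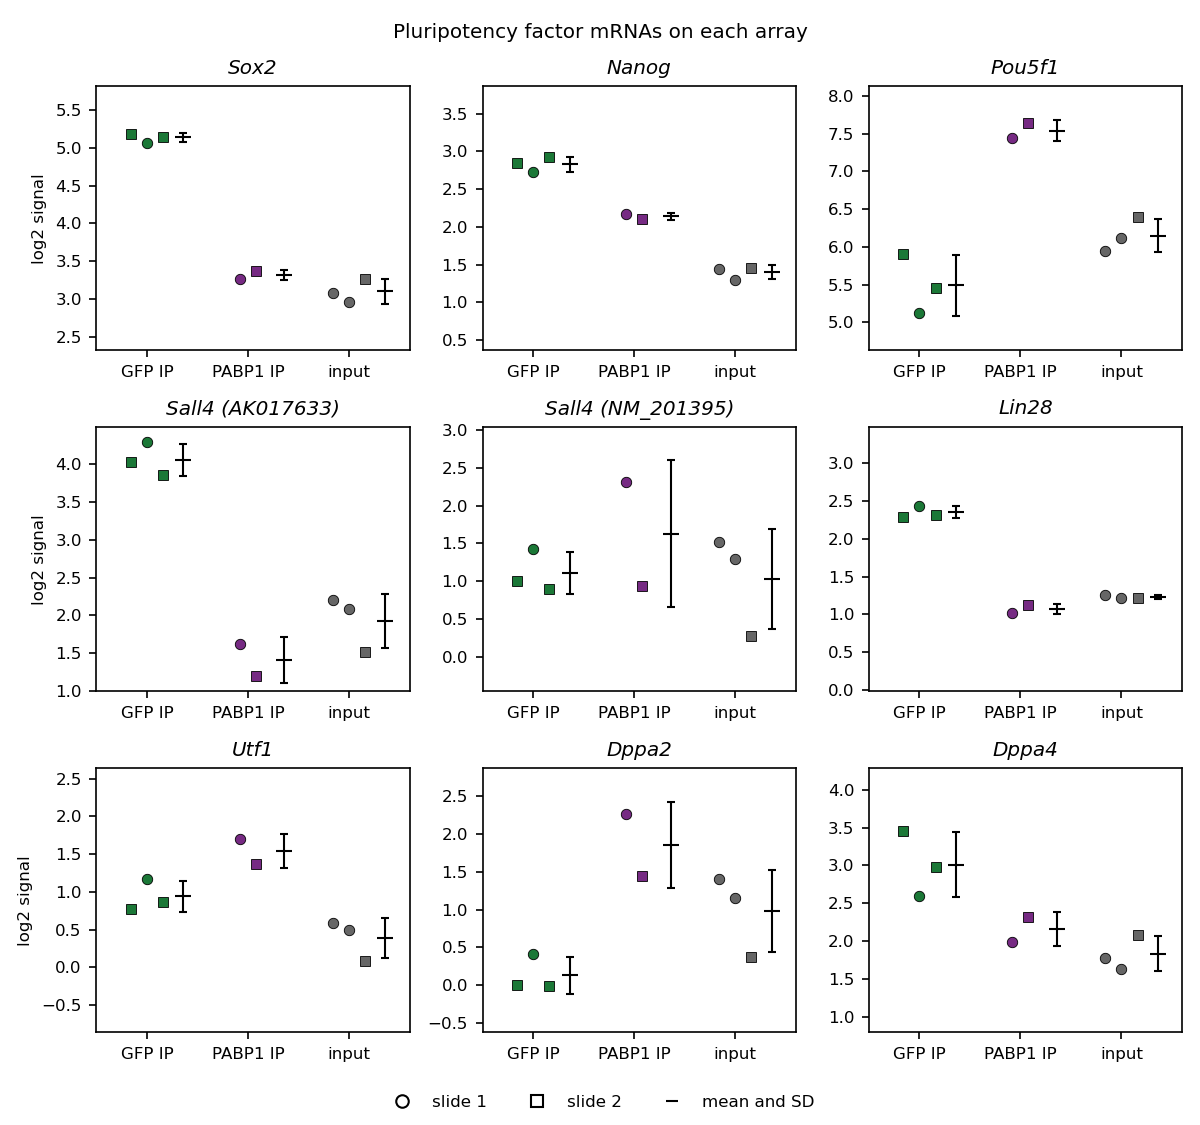
Log2 signal, relative to the 75th percentile of each array (vertical axis), of the 9 probes, with 1 point per array, round for slide 1 and square for slide 2, and the mean and SD of each group beside its points. All panels have the same span. The 3 GFP IPs stand above all other arrays for Sox2, Nanog, Lin28, Dppa4 and the Sall4 probe AK017633, and below both PABP1 IPs for Pou5f1, Utf1 and Dppa2.

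The GFP IP over input compared the signal of these mRNAs in the anti-GFP IP with that in total RNA. Sox2, Nanog, Lin28, Dppa4, Utf1 and one of the 2 Sall4 probes were higher in the GFP IP, by 1.47-fold for Utf1 to 4.38-fold for Sall4, and Pou5f1 was lower by 1.58-fold. Dppa2 and the other Sall4 probe did not pass the test. Of the 9 probes, 6 were called higher and 1 lower, while 63.3% of all tested probes were called, 24.2% higher and 39.1% lower. The groups did not overlap for 7 of the 9 probes, and for 68.3% of all tested probes. The median member probe stood at 1.12 and the median tested probe at −0.38. The 3 inputs enter this comparison and the next, so the values of both are given side by side for each gene and their likeness was not tested.

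The PABP1 IP over input compared the signal in the anti-PABP1 IP with that in total RNA. Pou5f1, Utf1 and Nanog were higher in the PABP1 IP, by 2.61-fold, 2.22-fold and 1.66-fold. No member was called lower, and 6 of the 9 probes did not pass. Among all tested probes 60.4% were called, 34.5% higher and 25.9% lower. The groups did not overlap for 5 of 9 member probes and for 71.2% of all tested probes, so the members' share was below the share over all probes. The median member probe was 0.60 and the median tested probe 0.22.

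Set against each other, the IPs differed for 8 of the 9 probes, in both directions. Sall4 (AK017633), Sox2, Lin28, Dppa4 and Nanog were higher in the GFP IP than in the PABP1 IP, by 6.29-fold, 3.53-fold, 2.43-fold, 1.81-fold and 1.62-fold. Pou5f1, Dppa2 and Utf1 were lower in the GFP IP, by 4.12-fold, 3.29-fold and 1.51-fold. That made 5 probes called higher and 3 lower of 9, against 70.3% of all tested probes called, 26.6% higher and 43.7% lower. Groups did not overlap for 8 of 9 member probes and for 80.3% of all tested probes. The median was 0.70 over the members and −0.52 over all tested probes. Utf1, at −0.60, lay close to the latter and was called in only 8 of 21 alternatives. The second Sall4 probe, NM_201395, also stood at −0.52 and was not called (adjusted p = 0.365).

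**Figure D2:**
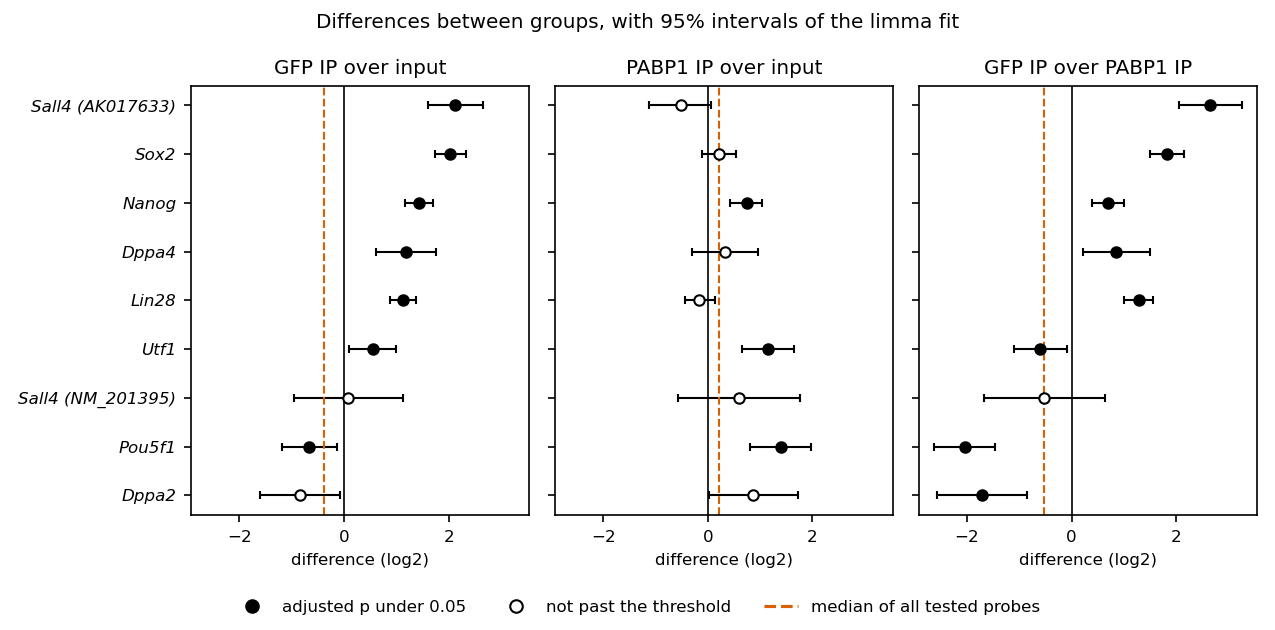
Difference of mean log2 signal (horizontal axis) for each probe in the 3 comparisons, with 95% intervals from limma's fit. Filled points have an adjusted p under 0.05, and the dashed line is the median of all tested probes, at −0.38, 0.22 and −0.52 from left to right. In the GFP IP over input, Sall4 (AK017633) and Sox2 lie farthest above that line. Pou5f1 and Dppa2 lie below it there and above it in the PABP1 IP over input.

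Of the 5 scalings tried, 4 add 1 constant to every probe of an array, and quantile normalization shifts probes by different amounts. Over the 5 scalings tried, the median tested probe ran from −0.38 to 0.16 for GFP IP over input, from −0.01 to 0.30 for PABP1 IP over input and from −0.52 to −0.03 between the IPs. Of all called probes, 38.2% were higher in the GFP IP over input, against 64.3% with scaling to the array median and 51.8% after centring on the median tested probe. In the PABP1 IP over input 57.1% were higher, against 60.6% with scaling to the array median, 49.6% after centring and 47.6% with the percentile of probes detected on all arrays, so that under these last 2 scalings most calls were lower. Between the IPs 37.8% were higher, against 51% to 53.8% under 3 other scalings. The members' median stood 1.50, 0.38 and 1.22 above the median of all probes in the 3 comparisons in the same order, a distance that a constant per array cannot change, and 1.41, 0.35 and 1.21 above it with quantile normalization. Under the other 4 scalings 6 member probes were higher and 0 lower in the GFP IP over input. With normexp background correction only 2 of the 9 member probes, Sox2 and Sall4 (AK017633), were still called in the GFP IP over input, 0 in the PABP1 IP over input and 3 in the GFP IP over the PABP1 IP, and the probes called in all fell to 2004, 3304 and 5461.

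Sox2 encodes the HMG-box factor that pairs with OCT4. Its log2 signal was 5.18, 5.07 and 5.15 in the 3 GFP IPs, 3.27 and 3.37 in the 2 PABP1 IPs and 3.08, 2.96 and 3.27 in the 3 inputs. Every GFP IP was far above every other array, while the PABP1 IPs and the inputs touched at 3.27. The difference was 2.03 ± 0.12 for GFP IP over input (adjusted p = 2.75e-05), above 94.6% of the tested probes. It was 1.98 with the slide as a block, 2.05 within slide 1 and 1.90 within slide 2. Between GFP IP and PABP1 IP it was 1.82 ± 0.14 (adjusted p = 3.31e-05), and 1.79, 1.81 and 1.80 in the same 3 fits by slide. For PABP1 IP over input it was 0.22 ± 0.14 with a 95% interval of −0.11 to 0.54 (adjusted p = 0.218), which lies at the median of all tested probes. That small value took the other sign with quantile normalization (−0.01) and with the percentile of probes detected on all arrays (−0.02). It passed in 1 of 21 alternatives, with array weights (0.35, adjusted p = 0.0371). The call between GFP IP and PABP1 IP ended with normexp (1.39, adjusted p = 0.0655).

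Pou5f1 encodes OCT4, the POU-domain factor without which the inner cell mass does not keep its identity. Its log2 signal was 5.91, 5.12 and 5.45 in the GFP IPs, 7.44 and 7.64 in the PABP1 IPs and 5.95, 6.12 and 6.39 in the inputs. The PABP1 IPs were highest, and the highest GFP IP came within a few hundredths of the lowest input. Over input the PABP1 IP stood at 1.39 ± 0.25 (adjusted p = 0.00234), with 1.32 under the slide block, 1.40 within slide 1 and 1.25 within slide 2. It ended as a call with quantile normalization (0.56, adjusted p = 0.121). Between GFP IP and PABP1 IP the difference was −2.04 ± 0.25 (adjusted p = 0.00028), with −2.11, −2.32 and −1.96 by slide, and it was called in all 21 alternatives.

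The lower level of Pou5f1 in the GFP IP than in the input was a weak call, at −0.66 ± 0.22 with a 95% interval of −1.18 to −0.13 (adjusted p = 0.0354). It stood only −0.28 from the median tested probe. It was called in 9 of 21 alternatives, always with the same sign, and ended with scaling to the array median (−0.12, adjusted p = 0.779), after centring (−0.35), with the 75th percentile of the detected probes alone (−0.49) and with quantile normalization (−0.37). It also ended without GFP IP 2 (−0.47, adjusted p = 0.0929), GFP IP 3 (0.0923), input 2 (0.0779) or input 3 (0.0932). With the slide as a block it was −0.79 (adjusted p = 0.00386), within slide 1 −0.92 (0.0256) and within slide 2 −0.70 (0.089). In the authors' deposited table the log2 ratio of the GFP IP mean over the input mean was −0.01. That table has another centre, with a median log2 ratio of 0.10 over its rows above 1. Relative to that median, Pou5f1 stood at −0.11.

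Sox2 and Pou5f1 proteins act as a pair, but their mRNAs moved apart. Subtracting Pou5f1 from Sox2 within each array removes the scaling of that array, and since probes differ in brightness only the change between groups has a meaning. This log2 difference was −0.36 ± 0.34 in GFP IPs, −4.22 ± 0.07 in PABP1 IPs and −3.05 ± 0.16 in inputs (SD, n = 3, 2 and 3). The lowest GFP IP, at −0.73, lay above the highest input, at −2.87, and the highest PABP1 IP, at −4.17, lay below the lowest input, at −3.17. The exact two-sided permutation p was 0.1 for GFP IP against input and 0.2 for PABP1 IP against input, in each case the smallest these numbers of arrays allow. This was 1 of 3 such pairs, each chosen after the values had been seen.

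Nanog encodes the homeodomain factor that stabilises the undifferentiated state. Its log2 signal was 2.84, 2.73 and 2.93 in the GFP IPs, 2.17 and 2.10 in the PABP1 IPs and 1.44, 1.30 and 1.46 in the inputs. The 3 groups were ordered GFP IP, PABP1 IP, input with no overlap at either step. Nanog was the only member besides Utf1 called higher than input in both IPs, at 1.43 ± 0.11 for GFP IP (adjusted p = 6.88e-05) and 0.74 ± 0.13 for PABP1 IP (0.00201). The GFP IP was above the PABP1 IP by 0.70 ± 0.13 (adjusted p = 0.00214). By slide, the GFP IP over input gave 1.41 with the block, 1.36 within slide 1 and 1.42 within slide 2. Recovery with PABP1 over input gave 0.72, 0.80 and 0.64, the last not past the threshold (adjusted p = 0.07), and between the IPs the values were 0.69, 0.56 (adjusted p = 0.0901) and 0.79. With normexp none of the 3 passed, at 1.12, 0.81 and 0.31. The probe was designed on the cDNA AK010332, which the authors' deposited table describes as similar to Nanog, and Nanog has near-identical processed copies, so signal from a copy cannot be told apart from signal of Nanog.

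Sall4 encodes a zinc-finger factor that binds OCT4 and NANOG, and its 2 probes gave different answers. The probe on the cDNA AK017633 had log2 signals of 4.03, 4.29 and 3.86 in the GFP IPs, 1.62 and 1.20 in the PABP1 IPs and 2.20, 2.08 and 1.52 in the inputs. The probe on the transcript variant NM_201395 had 1.00, 1.43 and 0.89 in the GFP IPs, 2.31 and 0.94 in the PABP1 IPs and 1.52, 1.29 and 0.27 in the inputs. For AK017633 the GFP IPs were more than 1 unit above every other array, while for NM_201395 all 3 groups overlapped.

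For AK017633 the GFP IP was above the input by 2.13 ± 0.23 (adjusted p = 0.000205) and above the PABP1 IP by 2.65 ± 0.25 (8.51e-05), higher than 95.3% and 96% of all tested probes. Both differences were called in all 21 alternatives. They were 2.29, 2.15 and 2.43 over input and 2.73, 2.67 and 2.75 over the PABP1 IP, with the slide block, within slide 1 and within slide 2. The PABP1 IP over input was −0.52 ± 0.25 with a 95% interval of −1.12 to 0.07 (adjusted p = 0.112). It passed in 6 of 21 alternatives, among them with the slide as a block (−0.45, adjusted p = 0.0123), without input 3 (−0.73, 0.0253) and after centring (−0.71, 0.0175).

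For NM_201395 the differences were 0.08 ± 0.44 for GFP IP over input (adjusted p = 0.883), 0.60 ± 0.49 for PABP1 IP over input (0.328) and −0.52 ± 0.49 for GFP IP over PABP1 IP (0.365). The 95% interval for GFP IP over input ran from −0.96 to 1.12 and so left out the 2.13 of the other probe. Leaving out single arrays turned the signs. GFP IP over input was −0.30 without input 3 and −0.08 without GFP IP 2, PABP1 IP over input was −0.08 without PABP1 IP 1, and the IPs differed by 0.16 without PABP1 IP 1. This probe was lower on slide 2 than on slide 1 by 0.48 in GFP IPs, 1.37 in PABP1 IPs and 1.13 in inputs (slide 2 minus slide 1: −0.48, −1.37 and −1.13). The shifts in PABP1 IPs and inputs were larger than those of any other member, while in GFP IPs Dppa4 (0.63) and Pou5f1 (0.56) moved more. Within slide 1 the GFP IP over input was 0.02 and within slide 2 it was 0.68 (adjusted p = 0.043), and with the slide as a block PABP1 IP over input passed at 0.76 (adjusted p = 0.0166).

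Within an array, the first Sall4 probe minus the second was 2.96 ± 0.09 in GFP IPs, −0.22 ± 0.67 in PABP1 IPs and 0.91 ± 0.30 in inputs (SD, n = 3, 2 and 3). The lowest GFP IP value was 2.86 and the highest input value 1.25. The exact two-sided permutation p for GFP IP against input was 0.1, the smallest that 3 against 3 arrays allow. The array's own annotation describes AK017633 as a clone of a testis-expressed gene, and where either probe lies in Sall4 transcripts was not analysed here.

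Lin28 encodes the RNA-binding protein that stops let-7 maturation. Its log2 signal was 2.29, 2.44 and 2.32 in the GFP IPs, 1.02 and 1.12 in the PABP1 IPs and 1.26, 1.21 and 1.21 in the inputs. The GFP IPs stood about 1 unit above all other arrays, and the PABP1 IPs lay just under the inputs. The GFP IP was above the input by 1.12 ± 0.11 (adjusted p = 0.000129) and above the PABP1 IP by 1.28 ± 0.12 (7.81e-05). The slide block, slide 1 and slide 2 gave 1.14, 1.21 and 1.10 over input and 1.29, 1.42 and 1.19 over the PABP1 IP. Although the PABP1 IPs and the inputs did not overlap, their difference of −0.16 ± 0.12, with a 95% interval of −0.44 to 0.13, did not pass (adjusted p = 0.296). It passed when the percentile was that of the detected probes alone (−0.39, adjusted p = 0.0251) and turned to 0.03 with normexp, under which neither call on the GFP IP held (0.83 over input and 0.80 over PABP1 IP).

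Utf1 encodes a chromatin-bound protein whose enhancer is a classical target of OCT4 with SOX2. Its log2 signal was 0.78, 1.17 and 0.87 in the GFP IPs, 1.70 and 1.37 in the PABP1 IPs and 0.59, 0.50 and 0.08 in the inputs. The order was PABP1 IP, GFP IP, input with no overlap, and the input on slide 2 was the lowest array. The PABP1 IP over input was 1.15 ± 0.21 (adjusted p = 0.00269), with 1.21, 1.16 and 1.30 by slide, and normexp was the only alternative in which it did not pass (1.03, adjusted p = 0.0551).

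The 2 other Utf1 calls were near the threshold. The GFP IP over input was 0.55 ± 0.19 (adjusted p = 0.0375), called in 14 of 21 alternatives, and it did not pass without input 2 (adjusted p = 0.0622), input 3 (0.40, 0.091), GFP IP 2 (0.44, 0.106) or GFP IP 3 (0.0745). It was 0.68 with the slide block (adjusted p = 0.00051), 0.62 within slide 1 (0.0521) and 0.75 within slide 2 (0.032). The GFP IP over PABP1 IP was −0.60 ± 0.21 (adjusted p = 0.0386), called in 8 of 21 alternatives. It did not pass without PABP1 IP 1 (−0.43, adjusted p = 0.216), GFP IP 1 (0.102), GFP IP 3 (0.0974) or input 2 (0.0564), with scaling to the array median (−0.14) or after centring (−0.11). The slide block gave −0.53 (adjusted p = 0.00188), and slides 1 and 2 gave −0.53 and −0.54, neither past the threshold.

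Dppa2 and Dppa4 are neighbouring genes on 1 chromosome with 0 protein-coding genes between them in the RefSeq table of GRCm38.p6, and their products bind chromatin together as a dimer. Dppa4 had log2 signals of 3.45, 2.59 and 2.98 in the GFP IPs, 1.99 and 2.32 in the PABP1 IPs and 1.78, 1.63 and 2.08 in the inputs. Dppa2 had 0.00, 0.41 and −0.01 in the GFP IPs, 2.26 and 1.45 in the PABP1 IPs and 1.40, 1.16 and 0.37 in the inputs. Dppa4 was highest in the GFP IPs and Dppa2 in the PABP1 IPs, and the second GFP IP was the lowest of its group for Dppa4 and the highest for Dppa2.

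Dppa4 was above the input in the GFP IP by 1.18 ± 0.24 (adjusted p = 0.00435), with 1.03, 0.89 and 1.14 by slide. It was above the PABP1 IP by 0.85 ± 0.27 (adjusted p = 0.0247), with 0.78, 0.60 and 0.90. The difference from the PABP1 IP was called in 14 of 21 alternatives and did not pass within slide 1 (adjusted p = 0.0782) or without PABP1 IP 1 (0.69, 0.139), GFP IP 1 (0.63, 0.0538) or GFP IP 3 (0.0555). With normexp neither passed, at 0.93 and 0.45. The PABP1 IP over input was 0.32 ± 0.27, with a 95% interval of −0.31 to 0.96 (adjusted p = 0.337), and was called in 0 of 21 alternatives.

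Dppa2 was lower in the GFP IP than in the PABP1 IP by 1.72 on the log2 scale (−1.72 ± 0.36, adjusted p = 0.00422), with −1.60, −1.84 and −1.45 by slide, and this was called in all 21 alternatives. Against the input, the GFP IP gave −0.84 ± 0.33 (adjusted p = 0.0548) and the PABP1 IP 0.87 ± 0.36 (0.0722). Neither passed, and the GFP IPs and inputs overlapped. With the slide as a block both passed, at −0.61 (adjusted p = 0.00745) and 0.99 (0.00112). Within slide 1 they were −0.87 (0.0329) and 0.97 (0.0232), and within slide 2 −0.37 (0.156) and 1.08 (0.0182). The GFP IP over input also passed without input 3 (−1.15, adjusted p = 0.0116) or without either PABP1 IP (0.0442 each), and the PABP1 IP over input without input 1 (1.09, 0.0474) or PABP1 IP 2 (1.28, 0.0412).

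Within an array, Dppa4 minus Dppa2 was 2.87 ± 0.65 in GFP IPs, 0.30 ± 0.80 in PABP1 IPs and 0.85 ± 0.75 in inputs (SD, n = 3, 2 and 3). The GFP IPs ran from 2.18 to 3.45 and the inputs from 0.38 to 1.72, with an exact two-sided permutation p of 0.1, the smallest possible. The PABP1 IPs, from −0.26 to 0.87, overlapped the inputs (exact permutation p = 0.6).

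The slide divided the members in the same direction in all 3 groups for 7 of the 9 probes. Both Sall4 probes, Utf1 and Dppa2 were lower on slide 2 in each group, by 0.33 to 1.37. Sox2, Pou5f1 and Dppa4 were higher on slide 2 in each group, by 0.10 to 0.63. Nanog and Lin28 moved by at most 0.16 in either direction. For Sox2, Nanog, Lin28 and the Sall4 probe AK017633, the differences between GFP IP and input were several times these shifts, while for Sall4 NM_201395 and Dppa2 the shift within the inputs was larger than the difference between GFP IP and input.

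**Figure D3:**
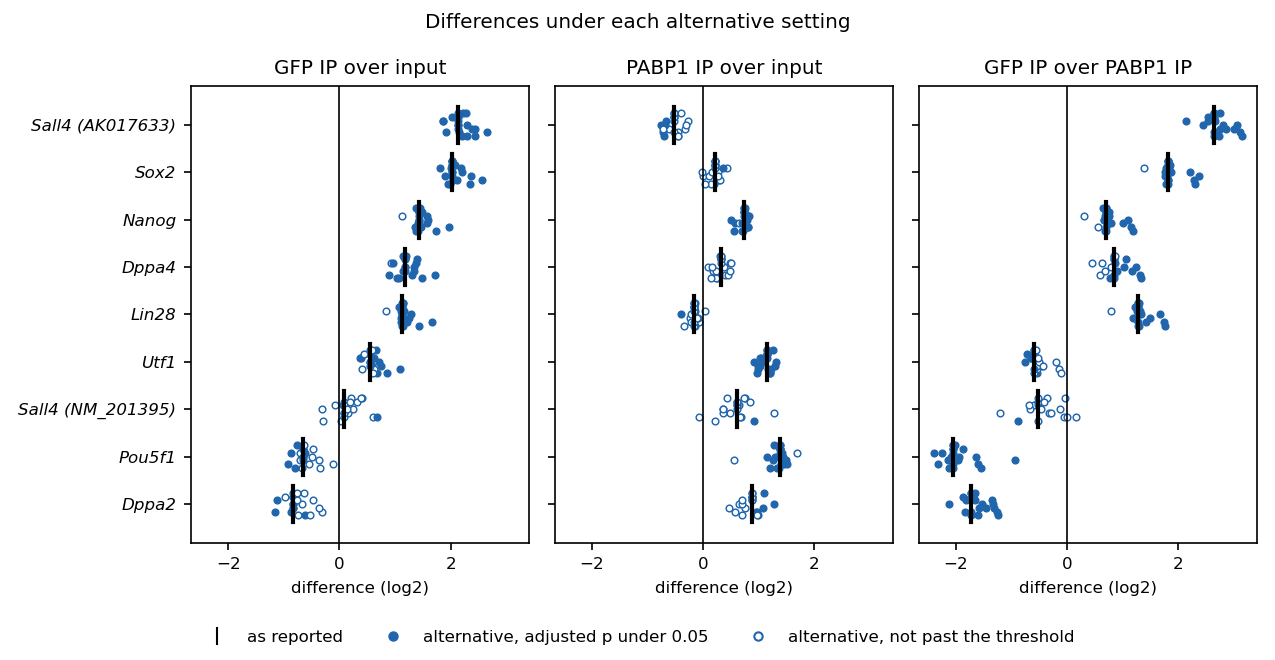
Difference in log2 signal (horizontal axis) of each probe in the 3 comparisons, as reported (black bar) and under each alternative with a test (points, filled where the adjusted p was under 0.05). Of the 27 differences, 22 kept their sign in every alternative. Sall4 NM_201395 crosses 0 in all 3 panels, and the points of Pou5f1 and Utf1 between GFP IP and input are a mixture of filled and open.

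By group order, Sox2, Nanog and Dppa4 ran GFP IP, PABP1 IP, input. Sall4 (AK017633) and Lin28 ran GFP IP, input, PABP1 IP. Pou5f1 and Dppa2 ran PABP1 IP, input, GFP IP, and Utf1 and Sall4 NM_201395 ran PABP1 IP, GFP IP, input. The first and second groups in these orders did not overlap for any member other than Sall4 NM_201395. The other neighbours in the order overlapped for Sox2, Dppa2, Dppa4 and both Sall4 probes.

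The genes with the most similar profile to each member were found by Pearson correlation over the 8 arrays, among 12965 other genes. Because the arrays fall into 3 groups that share inputs and slides, many genes correlate, and the values describe these arrays only. Sox2 was nearest to Unc93a (r = 0.9983) and Morf4l2 (0.9978), Lin28 to Acbd3 (0.9984) and Cdk17 (0.9979), Sall4 (AK017633) to Fam114a2 (0.9985) and Mboat7 (0.998), and Nanog to Zmynd19 (0.9978) and Golph3 (0.9954). Pou5f1 was nearest to Mrpl54 (0.9958) and Aamdc (0.9955), Dppa2 to Gucd1 (0.9989) and Hgs (0.9956), Utf1 to Gpr180 (0.9955) and Donson (0.9926), and Dppa4 to Rffl (0.9862) and Srsf6 (0.9835). The number of genes with r over 0.95 was 525 for Sox2, 523 for Lin28, 500 for Dppa2, 481 for Pou5f1, 387 for Sall4, 355 for Nanog, 122 for Utf1 and 67 for Dppa4. Utf1 and Dppa4 thus had the fewest genes of like profile. No member was among the 2 nearest genes of another.

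The genes around these factors were described from 5 lists, each gene by its brightest tested probe. By that rule 64.3% of the 14680 tested genes were called in the GFP IP over input (21% higher, 43.3% lower), 59.4% in the PABP1 IP over input (34.2% and 25.2%) and 70.9% in the GFP IP over the PABP1 IP (23.5% and 47.5%). The 8 members themselves had 6 higher and 1 lower, 3 and 0, and 5 and 3 in the same order, with medians of 1.15, 0.53 and 0.77 against −0.52, 0.24 and −0.68 over all tested genes.

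Other transcription factors of the ES cell network were more often higher than lower in the GFP IP and more often lower than higher in the PABP1 IP. Of 20 tested, 9 were higher and 1 lower in the GFP IP over input (median 0.18), 6 were higher and 10 lower in the PABP1 IP over input (median −0.70), and 14 were higher and 1 lower in the GFP IP over the PABP1 IP (median 1.13). With scaling to the array median the PABP1 IP over input had 7 higher and 8 lower. Etv5, an ETS-family factor, was higher in the GFP IP than in the input at 2.81 ± 0.18 (adjusted p = 3.39e-05), though its second probe gave 0.97. Mycn, a MYC-family factor, stood at 2.66 ± 0.18 (3.92e-05), and 2.50 by its second probe. By brightest probes, Nr5a2, a nuclear receptor that can replace OCT4 in reprogramming, was the 1 factor lower in the GFP IP (−0.72 ± 0.12, adjusted p = 0.00141). It was also lower in the PABP1 IP (−2.67 ± 0.13). Hcfc1, a cofactor of THAP11, had −0.02 ± 0.22 in the GFP IP over input by its brightest probe (adjusted p = 0.929). Its 2 other probes gave −0.49 (adjusted p = 0.019, well above background on 8 arrays) and 1.14 (0.146, on 5 arrays). In the PABP1 IP over input the brightest probe was lower at −3.28 ± 0.25 (4.74e-05), and the 2 others gave −1.26 and −0.44. The brightest probe was well above background on 1 of 2 PABP1 IPs. Thap11 was higher in both IPs (1.99 ± 0.12 and 1.18 ± 0.14). Zfx, a zinc-finger factor for self-renewal, was higher in the GFP IP (1.64 ± 0.13) and lower in the PABP1 IP (−2.92 ± 0.14) than in the input, while a dimmer probe of Zfx was higher in both (1.38 and 1.19). Gbx2, a homeobox factor, was higher in both IPs, at 1.27 ± 0.18 and 1.12 ± 0.20.

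Classical targets of OCT4 with SOX2 were mostly higher in the GFP IP. Of 14 tested, 9 were higher and 3 lower over input (median 0.71). In the PABP1 IP over input 3 were higher and 2 lower (median 0.33), and between the IPs 6 were higher and 5 lower in the GFP IP (median 0.18). Mycn, counted above, stands in both lists, as does Zfp42. Gdf3, a TGF-β family ligand, was lower in the GFP IP at −1.37 ± 0.16 (adjusted p = 0.000273). Dppa5a, an RNA-binding ES cell marker, was also lower at −1.32 ± 0.40 (0.0232), although with quantile normalization it stood at 0.02. Its second probe gave −1.50 (adjusted p = 0.000417). Dppa3 was higher in both IPs, at 1.36 ± 0.21 and 1.30 ± 0.23, and Tdgf1, a Nodal co-receptor, at 0.68 ± 0.16 and 1.47 ± 0.17. Jarid2, a Polycomb cofactor, was higher in the GFP IP (1.22 ± 0.18) and lower in the PABP1 IP (−1.86 ± 0.20), with 2.02 and −0.87 by its other probe. Over the 5 scalings the list's median in the PABP1 IP over input ran from −0.08 to 0.41, with 3 to 6 higher and 2 to 6 lower. Between the IPs it ran from 0.18 to 1.08, and the 4 other scalings gave 7 higher and 1 to 3 lower.

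Genes of the protein partners of OCT4 and NANOG were spread widely. Of 26 tested, 10 were higher and 6 lower in the GFP IP over input (median 0.20), 7 and 11 in the PABP1 IP over input (median −0.12), and 15 and 4 between the IPs (median 0.89). With scaling to the array median 17 were higher and 3 lower in the GFP IP over input. The deacetylase pair parted, with Hdac2 higher in the GFP IP over input (2.71 ± 0.62, adjusted p = 0.00709) and Hdac1 lower (−0.85 ± 0.16, 0.00273), and Hdac2 was well above background on only 1 of 3 inputs. The remodelling subunits also parted, with Smarcd1 at 2.51 ± 0.11 (adjusted p = 1.48e-05) and the ATPase Smarca4 at −1.97 ± 0.21 (0.000226). The 2 other Smarca4 probes gave −0.75 and −0.56, the second not past the threshold (adjusted p = 0.145). Mbd3, a subunit of the NuRD complex, was higher in both IPs, at 0.92 ± 0.22 and 2.11 ± 0.24. Rif1, a telomere and replication-timing protein, was lower in the GFP IP by its brightest probe (−1.95 ± 0.30) and higher by another (1.02, adjusted p = 0.0022), and it was lower in the PABP1 IP by both (−6.23 ± 0.34 and −1.36). The brightest probe was well above background on 1 of 2 PABP1 IPs.

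Of the 16 listed paralogues of the members, 11 were tested, with 4 higher and 2 lower in the GFP IP over input (median 0.26), 1 and 4 in the PABP1 IP over input (median −0.59), and 6 and 2 between the IPs (median 1.12). Over the 5 scalings 4 to 5 were higher and 0 to 2 lower in the GFP IP over input. Lin28b, the second LIN28 gene, was higher in the GFP IP (0.97 ± 0.20, adjusted p = 0.00434) and lower in the PABP1 IP (−1.22 ± 0.22, 0.00248) than in the input. The POU factor Pou3f1 was higher in the GFP IP (1.39 ± 0.20, adjusted p = 0.000741), while Pou2f1, which is made in most cells, was lower in both IPs (−0.59 ± 0.17 and −4.22 ± 0.19, with 0.44 and −2.22 by its other probe). Sox4, well above background on 2 of 3 inputs, was higher in the GFP IP (0.99 ± 0.27, adjusted p = 0.0163), and Sox15 was higher in the PABP1 IP (1.41 ± 0.21, 0.000941). Sall2 was lower in the PABP1 IP (−1.37 ± 0.16) and was well above background on 1 of its 2 arrays.

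Of 13 tested genes in a broad list around LIN28 and let-7, 1 was higher and 7 were lower in the GFP IP over input (median −0.78). Not all genes of this list act with LIN28 on let-7. The split changed with the scaling, to 3 higher and 3 lower with the array median and 2 and 4 after centring, and 43.3% of all tested genes were lower. In the PABP1 IP over input 0 were higher and 10 lower (median −1.22), and between the IPs 5 were higher and 1 lower in the GFP IP (median 0.27). The 1 gene higher in the GFP IP over input was Lin28b. Tut7, which adds uridines to let-7 precursors, was lower in both IPs (−2.23 ± 0.14 and −2.73 ± 0.16), and so was Xpo5, the exportin of microRNA precursors (−2.17 ± 0.35 and −1.40 ± 0.39). Their second probes gave smaller differences, all called, of −0.91 and −0.93 for Tut7 and −0.58 and −0.82 for Xpo5. Dicer1, the enzyme that cuts those precursors, gave −0.02 ± 0.13 in the GFP IP over input (adjusted p = 0.915) and was lower in the PABP1 IP at −2.88 ± 0.15 (1.8e-05), with −0.24 and −2.03 by its other probe.

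**Figure D4:**
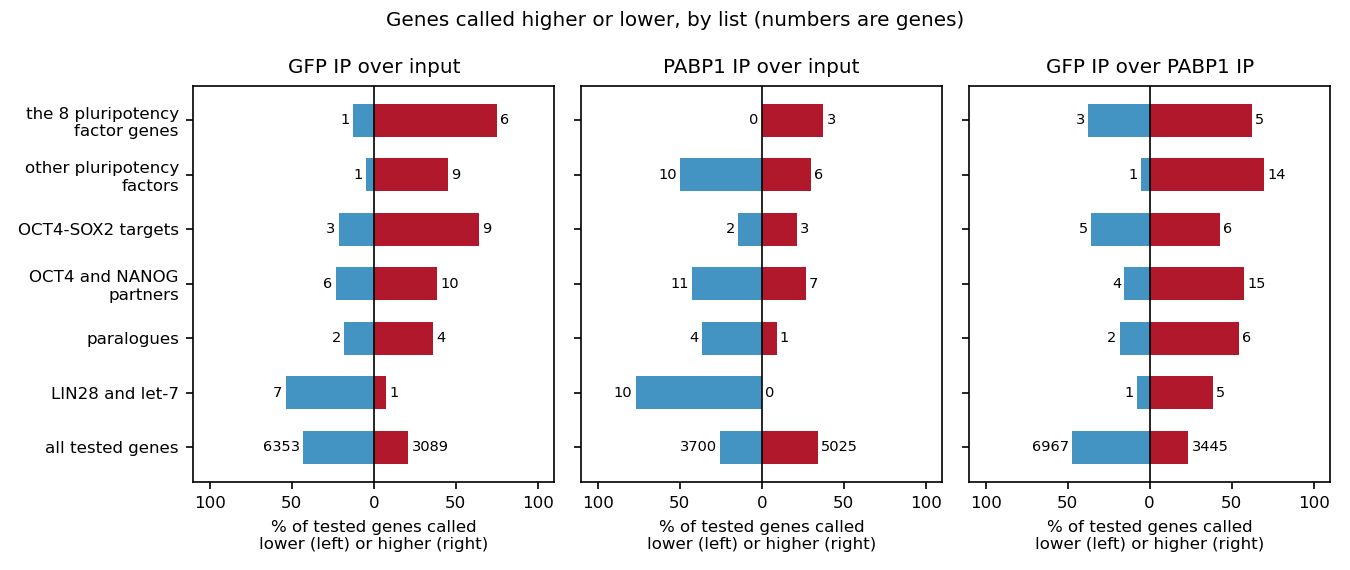
Share of the tested genes of each list that were called lower (left) or higher (right) in each comparison, with the number of genes at the bar's end and the 8 pluripotency factor genes on top. In the GFP IP over input 6 of the 8 genes are higher, against 21% of all tested genes in the bottom bar. In the PABP1 IP over input 10 of 13 LIN28 and let-7 genes are lower.

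The input is a bulk lysate of ES cells and feeders, in which fewer cells of a type and less RNA per cell cannot be told apart. Markers of feeder fibroblasts moved with the groups: the summed signal of 27 tested markers, in multiples of the array's 75th percentile, was 209 to 284 in GFP IPs, 871 to 892 in PABP1 IPs and 500 to 669 in inputs. Of these 27, 2 were higher and 18 lower in the GFP IP over input, against 21% and 43.3% of all tested genes. In the PABP1 IP over input 13 were higher and 3 lower, against 34.2% and 25.2%. Between the IPs 3 were higher and 20 lower, against 23.5% and 47.5%. Each marker was well above background throughout at least 1 group. Lgals1, a fibroblast lectin, was lower in the GFP IP over input (−1.95 ± 0.21), while Lox, a collagen cross-linking enzyme, was higher (1.96 ± 0.37). The part of the feeder RNA in the members' differences was not tested.

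Markers of primitive endoderm and trophoblast summed to 25.7 to 33.1 in GFP IPs, 30 to 32.8 in PABP1 IPs and 26.3 to 29.1 in inputs over 10 tested of 16, with Sox7, Pdgfra, Cdx2, Elf5 and Hand1 well above background on no array. Markers of primed or early-lineage cells summed to 21.3 to 27.1, 8.26 to 9.63 and 15.2 to 20 over 5 tested of 12. Fgf5, Mixl1, Pax6, Wnt8a, Meis1 and Hoxb1 were well above background on no array. The brightest markers weigh most in such sums. Of the 10 tested endoderm and trophoblast markers, 2 were higher and 4 lower in the GFP IP over input. The counts were 2 and 1 in the PABP1 IP over input and 2 and 5 between the IPs. Their medians of −0.57, 0.24 and −0.62 in the 3 comparisons lay near those of all tested genes, −0.52, 0.24 and −0.68. Of the 5 tested primed or early-lineage markers, 2 were higher and 2 lower in the GFP IP over input. The counts were 0 and 2 in the PABP1 IP over input and 2 and 1 between the IPs. Of all tested genes, 21% were higher and 43.3% lower in the GFP IP over input. The shares were 34.2% and 25.2% in the PABP1 IP over input and 23.5% and 47.5% between the IPs.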

How the data were processed

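RNA from 3 GFP IPs, 2 PABP1 IPs and 3 inputs was hybridised to 1-colour Agilent arrays (Cy3, design 014868). The authors deposited processed intensity values that, per the file headers, came from Feature Extraction 9.1.3.1, a program that subtracts background, removes spatial trends and sets very dim spots to a surrogate. Flags (other values, not intensities) for outliers, saturation and detection stand beside them as deposited. A further deposited table holds the mean intensity of each group, with a scaling that the sources used here leave unstated. Its 3 error columns were not used here. Per the submitters' labels, RNA was extracted with TRIZOL. The number of arrays limits the precision.

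Log2 of the processed intensity minus the array's 75th percentile over 43379 spots was averaged per probe. An outlier spot removed 32 probes. Tested probes were well above background throughout at least 1 group, which gave 20608 probes and 14680 genes. Genes were named through RefSeq on GRCm38.p6 (10719 by accession, 1464 by symbol, 783 by synonym), and 1714 kept the array's name. The 3 comparisons were tested with lmFit and eBayes of limma 3.58.1 (R 4.3.3) on the 8 arrays together, with 5 residual degrees of freedom and 2.17 prior ones, two-sided, with Benjamini-Hochberg adjustment over all tested probes. The fit was tested on simulated data. The R package data.table (version 1.17.8) read the files, and exact permutation tests used scipy 1.17.1 in Python 3.11.15.

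The members, gene lists and tests were chosen with earlier results of these data known. Other genes named are, in each list, up to 2 with the highest and 2 with the lowest difference among those called in each IP over input, by the brightest probe; a gene that this rule names is not reported here. No sequence is shown, since probe sequences and transcripts were not used here. Alternatives were other scalings, normexp with offset 50, no filter on dim probes, 1 probe per gene, slide and replicate blocks, each slide alone, array weights, 2 groups at a time, each array left out and the authors' group means. Centring on the median tested probe was added after seeing the data. Replicate numbers did not pair the arrays: deviations from group means correlated at −0.713 to 0.57 for the 7 pairs with the same number, at 0.417 to 0.74 for the 10 pairs on the same slide and at −0.74 to −0.241 for the 11 pairs on different slides.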

Additional observations from a re-analysis of the deposited data

How the results depend on the processing

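Of the 27 member differences, 22 kept their sign in every tested alternative. The exceptions were Sall4 NM_201395 in all 3 comparisons (−0.31 with array weights for GFP IP over input and 0.0021 on slide 2 alone between the IPs, and leave-one-out ranges of −0.30 to 0.32, −0.08 to 1.28 and −1.20 to 0.16), Sox2 in the PABP1 IP over input (−0.02 with the percentile of detected probes alone, −0.01 with quantile normalization) and Lin28 there (0.03 with normexp). The cause was not tested. Of 109 differences of other named genes, 60 lost a call in at least 1 alternative and 6 took the other sign. In the GFP IP over input, Dppa5a turned from −1.32 to 0.02 with quantile normalization and Otx2 from −0.35 to 0.18 with median scaling. Between the IPs Otx2 turned from −0.38 to 0.08, 0.02 and 0.11 with median scaling, the percentile over detected probes and centring. Pou2f3, well above background on 1 of 3 GFP IPs, turned there from −0.86 to 0.17 with normexp. In the PABP1 IP over input, Foxa2 turned to −0.22 with normexp and Lgals1 to −0.13 with quantile normalization. Foxa2 was well above background on 1 of 2 PABP1 IPs and on 0 of 3 inputs.

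With normexp, called probes fell to 2004, 3304 and 5461 in the 3 comparisons (GFP IP over input, PABP1 IP over input, GFP IP over PABP1 IP), called member probes to 2, 0 and 3 and called member genes to 2, 0 and 3. For PABP1 IP over input, 5 member probes were called with the percentile over detected probes, 6 with the slide block, 5 on slide 1 alone and 5 with array weights, and 5 member genes with the percentile over detected probes, 5 with the slide block and 5 with array weights. On slide 1 alone, 5 member genes were called between the IPs. Of the probes called in the PABP1 IP over input, 57.1% were higher, against 70.7% with normexp, 49.6% after centring and 47.6% with the percentile over detected probes. Arrays with the same replicate number are not stated to be paired, and with a replicate block 12930, 11979 and 13572 probes and 6, 4 and 6 member probes were called. Fits without a PABP1 IP assume that the lone array left varies like the other groups. Every member was well above background on all 8 arrays, yet most member calls ended with normexp. That setting starts from the unprocessed mean and background signals and adds an offset of 50. Which of these changes ended the calls was not tested.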
